A study of Ictidomys tridecemlineatus with 15 samples.

Results

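The 60 gene rows described here were those of the 13-lined ground squirrel (13LGS) retina whose counts stood highest in early-stage primary retinal progenitor cells relative to every other annotated cell type. UMI counts, which are counts of captured mRNA molecules, were summed over all used cells of each of 12 annotated types and expressed as counts per 1000000 UMIs of that sum (CPM). A row's score was the log2 ratio of its CPM in early-stage primary progenitors (annotated Early_RPC) to its highest CPM in any other type, with 10 CPM added to both. Of 34181 matrix rows, 33569 had a count in the used cells, 3073 reached 50 CPM in Early_RPC, and the 60 rows were chosen by the highest scores among these. The names list of the study is not paired with the matrix rows, so each row is given by its number, counted from 1, and no gene name, function or sequence can be attached to it. For the same reason the annotated types could not be checked against their marker genes.

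Primary retinal progenitor cells (RPCs) are the dividing cells of the developing neural retina. They change competence over time: in mammals such as the mouse, early-stage RPCs give rise to retinal ganglion cells, horizontal cells and cones, and late-stage RPCs to bipolar cells, rods and Müller glia. A primary RPC may self-renew or pass through a neurogenic state, a short-lived stage on the way to leaving the cell cycle. Müller glia form last and keep part of the expression program of late-stage RPCs. The 13LGS is a diurnal rodent with a cone-rich retina.

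The study profiled whole 13LGS retinas by droplet single-cell RNA-Seq across development, and no genotype, strain or treatment is given for any group. Embryonic retinas came from timed pregnancies of captive dams at embryonic day (E) 18, 21, 24 and 26, and postnatal retinas from captive-bred litters at postnatal day (P) 4, 8, 12, 17 and 21. Retinas had been preserved in methanol or flash-frozen, and the preservation of each library is not stated. The labels do not say how many animals a library holds or whether the libraries of a time point came from separate litters, so p-values measure the spread between libraries, which may be technical.

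The 14 libraries used held 46474 cells. The median UMI count per cell was 5230.5 to 11868 in the 7 embryonic libraries and 1548 to 4175 in the 7 postnatal libraries, so depth and stage move together. Where a time point had 2 libraries they are called a and b, letters that name them only. P8b stood apart: its 50 late-stage primary RPCs (annotated Late_RPC) carried the 60 rows at a summed level of 7343 CPM, against 1431 CPM in the 332 cells of P8a, at median depths of 2390.5 and 2387.5 UMIs. Results on late-stage types are therefore given with and without P8b. Of 46210 distinct cell barcodes, 263 occurred in more than 1 library.

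The scores ran from 2.81 to 0.53. Row 18595 led with 204 CPM in Early_RPC against 20.6 CPM in early-stage neurogenic RPCs (annotated Early_NG), the next type. Row 29417 followed with a score of 1.84, at 65.7 against 11.2 CPM in Early_NG, and row 5338 with 1.56, at 546 against 179 CPM in Late_RPC. The other 7 of the 10 highest were rows 2404, 32716, 409, 13197, 26340, 9426 and 29325, with scores between 1.39 and 1.05. Below these the scores changed in small steps. The last rows inside the limit, 23575, 23293 and 9081, scored 0.529, 0.528 and 0.527, and the first outside, 15673, 24251 and 17692, scored 0.525, 0.518 and 0.514. The limit of 60 therefore falls within a run of near-equal scores. These values chose the rows and are given with no test.

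**Figure D1:**
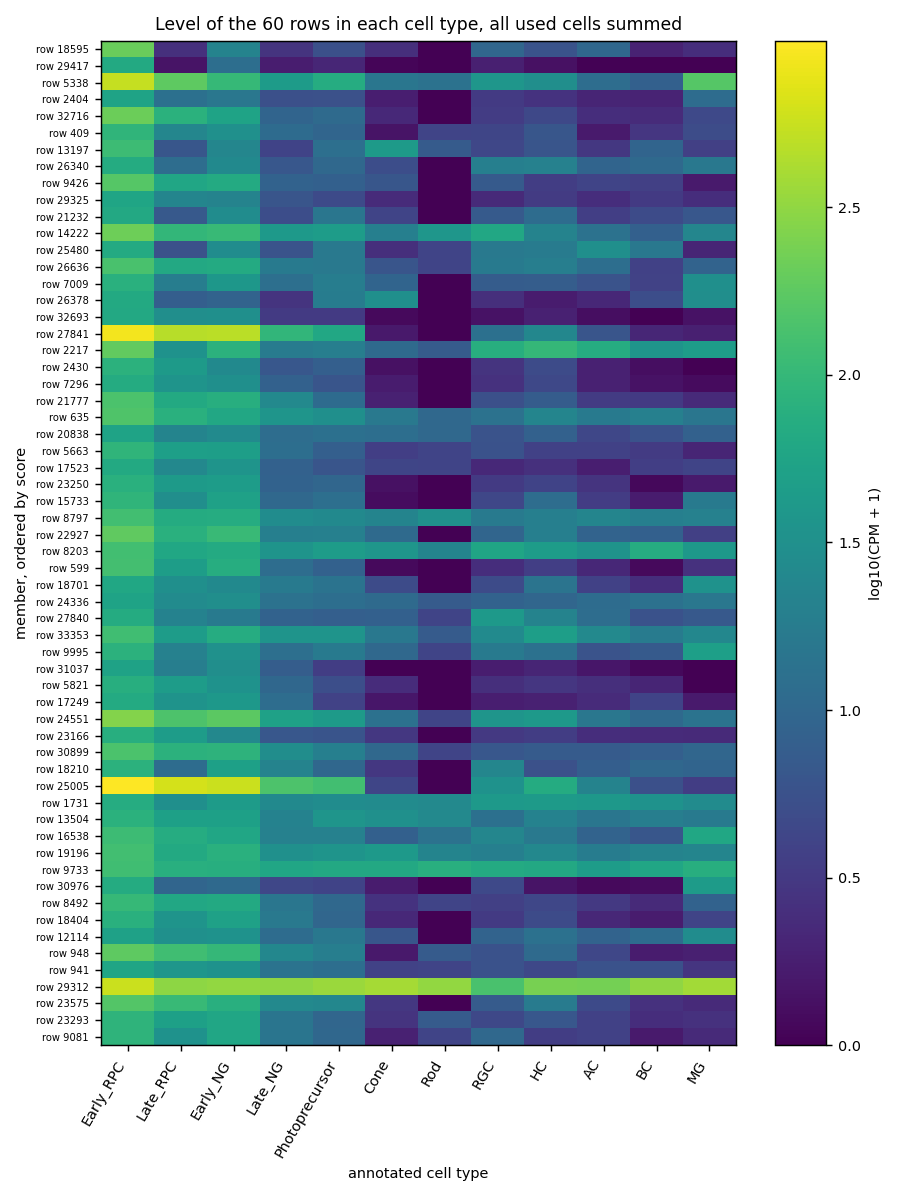
Level of each of the 60 rows (vertical axis, ordered by score from top to bottom) in each of the 12 annotated cell types (horizontal axis), as log10(CPM + 1) of the counts summed over all used cells. Early_RPC is the leftmost and brightest column, Late_RPC and Early_NG are intermediate, and the types of differentiated neurons are darker for most rows, with row 29312 bright in all types.

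The type next to Early_RPC was Early_NG for 34 of the 60 rows and Late_RPC for 15. For the other rows it was cones or Müller glia (3 rows each) or amacrine, horizontal, bipolar, retinal ganglion cells or rods (1 row each). In Early_NG the median row stood at 52.4% of its Early_RPC level, and in Late_RPC at 45.2%. The loss was steeper in late-stage neurogenic RPCs (annotated Late_NG, 12.9%), photoreceptor precursors (10.98%), horizontal cells (6.04%), Müller glia (5.28%) and retinal ganglion cells (4.94%). Over all 3073 rows that reached 50 CPM in Early_RPC, the corresponding medians were 97.7% in Early_NG, 91.3% in Late_RPC, 85.8% in Late_NG and 82.5% in Müller glia. Some of the 60 rows kept 50% or more of their Early_RPC level in a differentiated type. There were 7 such rows in Müller glia and 3 each in retinal ganglion and horizontal cells. Cones, rods and bipolar cells had 2 each and amacrine cells 1, and a row can count in more than 1 type. Row 29312 stood at 567 CPM in Early_RPC and at 388 CPM in cones, and row 9733 at 120 against 77.1 CPM in rods. Rows 27840 and 27841 are adjacent in the matrix but behaved differently, with 69.3 against 39.3 CPM in retinal ganglion cells for row 27840 and 888 against 483 CPM in Early_NG for row 27841.

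Pooled counts could give a row a high Early_RPC level through a single library, since E18 supplied 44.0% of the embryonic Early_RPC cells and 39.3% of their UMIs. Read library by library, 60 of the 60 rows were highest in Early_RPC at E18, 59 in each E21 library, 55 in each E24 library, 43 in E26a and 55 in E26b. A total of 37 rows were highest in Early_RPC in all 7 embryonic libraries, and 16 in 6 of them. The types compared, Early_RPC included, numbered 4 at E18, 8 in E26a and 5 in each other embryonic library. Late_RPC was among them in E26a only, where it (42 cells) was the most frequent next type, for 37 rows. The score had chosen the rows for a high Early_RPC level in sums that include these same counts. How many rows were highest in Early_RPC is therefore largely set by the choice and is a description only. No row drew 90% of its Early_RPC level from 1 library. The nearest was row 18210, with 50.5% of the sum of its library levels at E18, and it was highest in Early_RPC in 3 of the 7 libraries. The summed level of the 60 rows in Early_RPC was 8486 ± 683 CPM (SD, n = 7 libraries), with a lowest of 7472 and a highest of 9368 CPM. The sum thus changed little across the embryonic libraries while its composition did not stay the same, as the next comparison shows.

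Whether the rows were lost from early-stage primary RPCs before birth was asked by fitting the level of every row in Early_RPC against embryonic day over the 7 embryonic libraries (edgeR's quasi-likelihood test, Benjamini-Hochberg adjusted p below 0.05). All 60 rows passed the filter on low counts. Of these, 22 fell with age and 12 rose, where 6.73% of all 15903 rows tested fell and 7.18% rose. The remaining 26 did not pass. The fitted change from E18 to E26 had a median of -1.70 on the log2 scale in the 22 rows that fell (range -3.45 to -0.59) and of 0.73 in the 12 that rose (0.49 to 1.14). Because the pooled score weighs E18 most and the other types come mostly from later ages, the choice of the rows is not independent of this test, and the counts are not read as a property of early-stage progenitor genes. Without E18, the only library of its age, 17 rows passed, 13 lower and 4 higher. Of all 15069 rows tested without E18, 278 were lower and 381 higher. Without cells above 2 times the median UMI count 20 fell and 4 rose, and with no filter on low counts 22 fell and 7 rose, so the number of rises was the less stable of the counts.

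**Figure D2:**
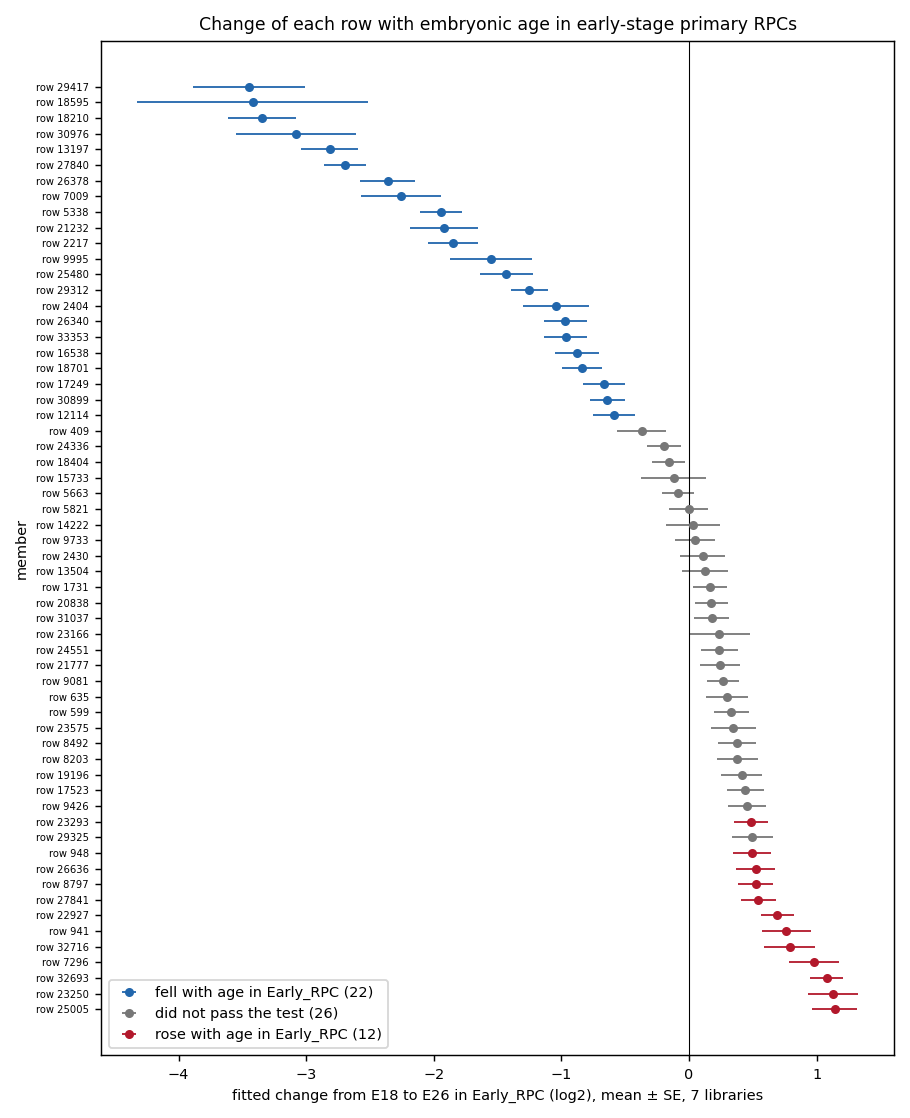
Fitted change of each of the 60 rows from E18 to E26 in Early_RPC (horizontal axis, log2, points with SE bars, 7 libraries), ordered from the largest fall to the largest rise (vertical axis). Blue marks the 22 rows that fell, red the 12 that rose and grey the 26 that did not pass the test, and the falls reach -3.45 where the rises stop at 1.14.

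The largest fitted fall was that of row 29417. Its Early_RPC level was 95.2 CPM at E18, 105 and 66.1 CPM at E21, 18.3 and 28.3 CPM at E24, and 9.16 and 14.0 CPM at E26. The E24 and E26 libraries all lay below the E18 and E21 libraries, and the fitted change was -3.45 ± 0.44 (SE, log2, edgeR adjusted p = 0.000684). The level of row 18595 was 378 CPM at E18, 155 and 119 CPM at E21, 45.5 and 128 CPM at E24, and 1.48 and 50.8 CPM at E26. Its libraries of the same age differed widely, E24b lay above E21b, and E26a was nearly empty of it. The fitted change of row 18595 was -3.42 ± 0.90 (edgeR adjusted p = 0.0304), and it did not pass the test without E18, E24a or E26b.

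The level of row 18210 was 164 CPM at E18, 49.3 and 42.8 CPM at E21, 14.8 and 23.3 CPM at E24, and 14.0 and 16.3 CPM at E26, so that most of the loss lay between E18 and E24. The fitted change of row 18210 was -3.35 ± 0.27 (edgeR adjusted p = 6.34e-05). The level of row 30976 was held up to E21, with 99.2 CPM at E18 and 82.3 and 82.1 CPM at E21, and was then 19.6 and 48.1 CPM at E24 and 14.0 and 10.5 CPM at E26. Its change was -3.08 ± 0.47 (edgeR adjusted p = 0.00195). Row 13197 was 174 CPM at E18, 132 and 111 CPM at E21, 38.3 and 56.3 CPM at E24, and 24.1 and 30.7 CPM at E26, a change of -2.82 ± 0.23 (edgeR adjusted p = 6.34e-05). Each of these 3 rows passed the test without any single library.

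Of the 22 rows the most abundant at E18 was row 5338, which fell in steps that did not overlap between ages. It was 777 CPM at E18, 581 and 576 CPM at E21, 278 and 352 CPM at E24, and 211 and 201 CPM at E26, a change of -1.94 ± 0.16 (edgeR adjusted p = 7.31e-05). Rows 2404 and 26340 fell less, with changes of -1.04 ± 0.26 and -0.97 ± 0.17 (edgeR adjusted p = 0.0223 and 0.00446). Neither of these last rows passed without E18, and row 2404 did not pass without E26a. On plain CPM, the median of the 22 rows stood at 34.5% of its E18 level at E26, and 2 of the 22 were under 10%.

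The 12 rows that rose held the 2 most abundant of all 60. The level of row 25005 was 742 CPM at E18, 799 and 947 CPM at E21, 1253 and 1235 CPM at E24, and 1331 and 1602 CPM at E26. No later age overlapped an earlier one, and the change was 1.14 ± 0.18 (log2, edgeR adjusted p = 0.00213). The rise of row 27841 was smaller, at 0.54 ± 0.14 (edgeR adjusted p = 0.0251), from 770.3 CPM at E18 to 972 and 1194 CPM at E26. The other large rises were those of row 23250 (1.13 ± 0.20), row 32693 (1.08 ± 0.13), row 7296 (0.98 ± 0.19) and row 32716 (0.79 ± 0.20), with edgeR adjusted p of 0.00413, 0.000487, 0.00799 and 0.0243. Row 32693 went from 47.8 CPM at E18 to 90.5 and 101 CPM at E26. Rows 23250 and 32716 did not pass without E18, and row 32716 did not pass without E26b. Of the 10 rows with the highest scores, rows 409, 9426 and 29325 did not pass: their changes were -0.37 ± 0.19, 0.45 ± 0.15 and 0.49 ± 0.16.

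The 2 directions offset each other in the sum. The 22 rows that fell summed to 4200 CPM in Early_RPC at E18 and to 1257 and 1366 CPM at E26. The 12 rows that rose summed to 2502 CPM at E18 and to 3730 and 4458 CPM at E26, and the 26 others to 2666 CPM at E18 and to 2752 and 3216 CPM at E26. These sums follow from the grouping and carry no test. The row highest at E18, row 5338 at 777 CPM, stood at 211 and 201 CPM at E26. The next at E18 included row 27841 (770.3 CPM) and row 25005 (742 CPM), and these were the highest in both E26 libraries.

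**Figure D3:**
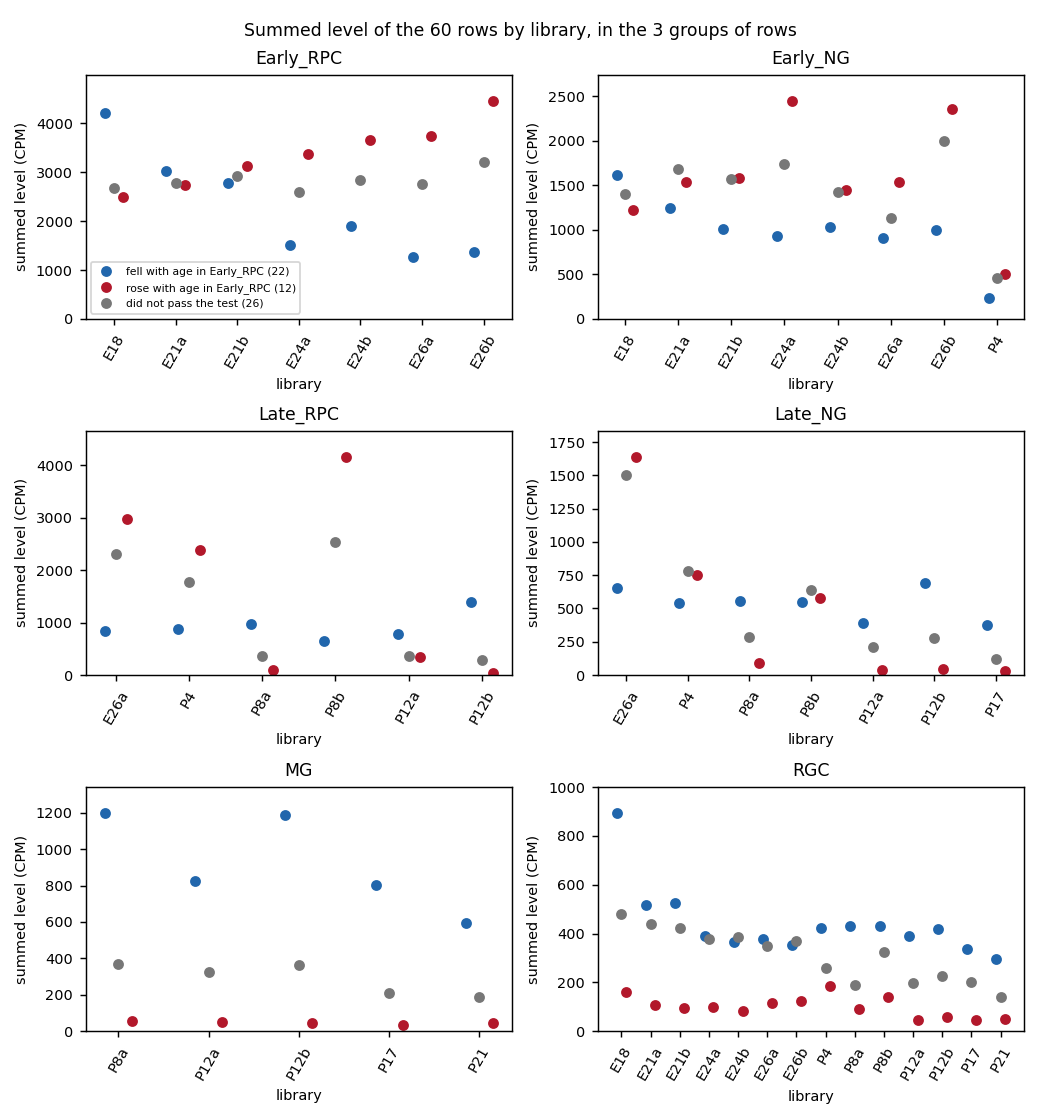
Summed level (vertical axes, CPM) of the rows that fell (blue), rose (red) or did not pass (grey) with age in Early_RPC, 1 point per library (horizontal axes) and 1 panel per cell type, each vertical axis starting at 0. In Early_RPC the blue and red points cross between E18 and E24, in Late_RPC the red points are high at P4 and P8b and low at P8a and both P12 libraries, and in Müller glia (MG) the blue points lie above the others in all 5 libraries.

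Early-stage neurogenic RPCs of the same libraries were asked the same question. The 60 rows summed to 4403 ± 635 CPM in Early_NG (SD, n = 7), with all 60 rows tested. There, 6 rows fell and 3 rose, where 2.73% of the 11248 rows tested fell and 4.81% rose, 7.54% in either direction (edgeR). Without E18, 4 rows passed, where 81 of all 10343 rows tested fell and 205 rose. Without cells of high UMI count 7 rows fell and 0 rose, where 176 and 306 of 9892 rows tested did (edgeR). With those cells left out, 21 of the rows were below an unadjusted p of 0.05 in either direction (edgeR). Over all rows tested, 784 were lower and 936 higher at that limit. Row 18210 was 163 CPM at E18, 53.1 and 29.4 CPM at E21, 15.5 and 17.2 CPM at E24, and 12.3 and 13.2 CPM at E26, close to its levels in Early_RPC, and changed by -3.61 ± 0.33 (edgeR adjusted p = 1.81e-05). The other falls were those of rows 18595 (-2.86 ± 0.71), 7009 (-2.05 ± 0.40), 27840 (-1.71 ± 0.36), 25480 (-1.45 ± 0.31) and 21232. Of these, rows 18595, 27840 and 25480 did not pass without E18, and row 18595 did not pass without E24a or E26a. Row 409 rose from 16.5 CPM at E18 to 48.5 and 34.7 CPM at E26 (1.60 ± 0.32, edgeR adjusted p = 0.0058), while in Early_RPC it lay between 63.6 and 108 CPM. Rows 26378 and 25005 also rose (1.60 ± 0.45 and 1.46 ± 0.39) but each lost its call without E18, E21a, E21b or E26a, and row 26378 also without E24b.

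The difference in the effect of age between the neurogenic and the primary RPCs was tested with the library as a block. It passed for 14 rows, 13 of them with a higher age effect in Early_NG and 1 with a lower one, where 2.78% and 2.09% of 15620 rows tested passed, 4.88% in either direction (edgeR). Of the 14 rows, 11 were among the 22 that fell in Early_RPC, whose sums enter both tests. The score set Early_RPC against the highest other type and weighed E18 most, so it favoured rows low in Early_NG at E18. The choice of the rows is not independent of this test, and the counts are not read as a property of the rows. The largest difference was that of row 26378. It went from 107 CPM at E18 to 18.7 and 23.96 CPM at E26 in Early_RPC, and from 3.70 CPM to 11.8 and 9.90 CPM in Early_NG, a difference in change of 3.95 ± 0.37 (log2, edgeR adjusted p = 6.51e-08). The level of row 30976 was 8.07 CPM at E18 and 7.13 and 4.95 CPM at E26 in Early_NG, with no pass there, and differed by 3.12 ± 0.39 (edgeR adjusted p = 6.24e-06). Rows 29417, 5338 and 13197 differed by 2.45 ± 0.35, 2.30 ± 0.33 and 2.17 ± 0.28. These 5 rows fell in the primary RPCs from high levels and started low in the neurogenic RPCs, so that the 2 types stood closer together at E26 than at E18. A high level in Early_RPC beside a low one in Early_NG is what the score selected, so this is a description only. Row 8492 was the exception (-0.82 ± 0.21, edgeR adjusted p = 0.0192) and did not pass without E18, E21a or E26a.

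Retinal ganglion cells (RGCs) are postmitotic neurons of the same libraries. The 60 rows summed to 1004 ± 253 CPM there before birth (SD, n = 7). Of the 57 rows tested, 27 fell and 1 rose, where 10.2% and 12% of 16390 rows tested fell and rose (edgeR). Without E18, 10 passed, where 802 of all 15749 rows tested fell and 1117 rose. The share of a library's cells that were Early_RPC moved with these levels. It was 70.5% at E18, 47.3% and 41.4% at E21, 40.8% and 32.7% at E24, and 26.1% and 31.0% at E26. The summed level in RGCs was 1534 CPM at E18, 1062 and 1044 CPM at E21, and 831 to 868 CPM in the E24 and E26 libraries. RNA released by other cells reaches every droplet, and its part in the RGC result was not tested.

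The largest falls in RGCs were those of rows 18595 (-4.16 ± 0.52), 13197 (-3.96 ± 0.55), 7009 (-3.43 ± 0.32), 25480 (-2.75 ± 0.24) and 29417 (-2.47 ± 0.58). In RGCs row 18595 was 37.3 CPM at E18 and 0.353 and 3.78 CPM at E26. Row 13197 was 13.9 CPM at E18 and 1.24 and 0.378 CPM at E26. Each of these 5 rows also fell in Early_RPC. The single rise in RGCs was that of row 26340 (0.70 ± 0.17, edgeR adjusted p = 0.0129), from 14.4 CPM at E18 to 24.3 and 22.6 CPM at E26, while it went from 96.3 to 41.5 and 46.6 CPM in Early_RPC. Its call in RGCs did not hold without E18 or E26a.

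The age effect in RGCs differed from that in Early_RPC for 37 rows, 31 with a lower effect in RGCs and 6 with a higher one, where 12.3% and 11.2% of 17757 rows tested passed (edgeR, library as a block). Without E18, 19 rows passed, 9 lower and 10 higher, where 1134 of all 17536 rows tested were lower and 1386 higher. As for Early_NG, the choice of the rows is not independent of this test. The lower effects were led by row 32693 (-2.59 ± 0.84), row 29325 (-2.20 ± 0.36), row 32716 (-2.05 ± 0.39), row 409 (-2.04 ± 0.32) and row 21777 (-1.80 ± 0.24). Of these only row 21777 passed without each single library, and row 32693 changed direction without E18. Row 32693 was at most 1.33 CPM in any embryonic RGC library. The higher effects were led by row 27840 (2.02 ± 0.27), row 26340 (1.63 ± 0.19), row 18210 (1.62 ± 0.23), row 30976 (1.47 ± 0.38) and row 2217 (1.20 ± 0.16), and of these row 30976 did not pass without E26a. Row 27840 fell from 123 to 17.1 and 18.3 CPM in Early_RPC and was 54.0 CPM at E18 and 33.8 and 27.4 CPM at E26 in RGCs. After birth it was 53.5 to 149 CPM in RGCs, above its levels in every other type with 10 or more cells after birth.

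Late-stage primary RPCs appeared with 42 cells in E26a and with 1374 cells at P4. In E26a, the 60 rows summed to 6133 CPM in Late_RPC against 7738 CPM in Early_RPC. At P4 the sum was 5060 CPM and the median row stood at 55.8% of its mean Early_RPC level at E26. It stood at 10.7% in P8a, 67.3% in P8b, 12.4% in P12a and 4.84% in P12b, with 332, 50, 81 and 69 cells. The summed levels of the rows that fell before birth and of those that rose took different paths. In Late_RPC the 22 rows that fell summed to 884 CPM at P4, 980.3 and 643 CPM at P8, and 784 and 1399 CPM at P12. The 12 rows that rose summed to 2395 CPM at P4, 90.71 CPM in P8a, 4163 CPM in P8b, and 349 and 31.9 CPM at P12. The median of the 22 rows was 20.9 CPM at P4, 9.29 and 14.5 CPM at P8, and 15.2 and 10.2 CPM at P12. Their sum thus did not follow their median, and row 29312, high in all types, was 302 CPM in pooled Late_RPC. The median of the 12 rows was 88.3 CPM at P4, 4.92 and 137 CPM at P8, and 15.2 and 0 CPM at P12.

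The P8 libraries disagreed on most of the 60 rows in Late_RPC (332 and 50 cells). Between them 36 of the 60 rows differed by more than 2-fold in Late_RPC after 10 CPM was added, against 15 between the P12 libraries in Late_RPC (81 and 69 cells) and 18 between the P8 libraries in Late_NG. In Early_RPC, with 619 to 1129 cells per library, the number was 0 or 1 at E21, E24 and E26. These counts were made for the 60 rows only. The share over all rows is not known, so they are not read as a property of the 60 rows. The time point of P8b rests on its label alone and was not tested. Row 27841 was 672 CPM at P4, 4.37 CPM in P8a, 1156 CPM in P8b, 50.6 CPM in P12a and 0 in P12b. A UMI of row 27841 was found in 4 of 332 Late_RPC cells of P8a (1.20%) and in 41 of 50 of P8b (82.0%), and in amacrine cells in 1.19% and 5.08%. Row 25005 was 902 CPM at P4, 33.9 CPM in P8a, 1467 CPM in P8b, 162 CPM in P12a and 0 in P12b. In P12a the level of row 25005 came from 3 of 81 cells, and in P12b 3 UMIs, the limit that a count of 0 allows, would be 8.71 CPM. Late_RPC of P8b was therefore near the level of P4 or above it for these rows, and P8a was near the level of P12. Late_RPC made up 11.02% of the cells of P8a and 3.65% of those of P8b. Photoreceptor precursors were 157 of 3012 cells in P8a and 669 of 1369 in P8b. P8a held 82 cones and 94 Müller glia, and neither type was annotated in P8b.

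Over the 5 postnatal libraries, 40 of the 60 rows could be tested against postnatal day in Late_RPC, and the other 20 were too low. Here 1 row fell and 0 rose, where 0.0935% and 0.262% of 5350 rows tested did (edgeR). At an unadjusted p below 0.05 the number was 18 (edgeR), where 392 of all 5350 rows were lower and 332 higher. DESeq2's test called 2, where 23 of 9645 rows were lower and 52 higher. The row that fell was row 30899, with 122 CPM at P4, 21.9 and 43.4 CPM at P8, and 15.2 and 8.71 CPM at P12, a slope of -0.44 ± 0.07 per day (log2, edgeR adjusted p = 0.0402). Its libraries fell into the order of their ages. Row 30899 did not pass without P12a or P12b and could not be tested without P4. Without P8b, 26 rows were tested and 7 fell, where 65 of all 6992 rows tested fell and 52 rose. The 7 were led by rows 27841 (-0.74 ± 0.16 per day), 23575 (-0.64 ± 0.12) and 24551 (-0.52 ± 0.11). The number of rows called thus depended on P8b, while the median row was lower in both P12 libraries than at P4.

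Late-stage neurogenic RPCs held less of the rows than the primary RPCs of the same libraries. Their sum was 2077 CPM at P4, 931 and 1767 CPM at P8, 645 and 1014 CPM at P12, and 527 CPM at P17. The median row stood at 42.8% of its mean Early_NG level at E26 at P4, at 12.9% and 31.6% at P8, at 8.89% and 10.5% at P12, and at 0 at P17, where 51 cells carried 89 UMIs of all 60 rows. Of 20 rows tested against postnatal day, 6 fell and 0 rose, where 1.33% and 1.18% of 6773 rows tested did (edgeR). At an unadjusted p below 0.05 the number was 12 (edgeR), where 467 of all 6773 rows were lower and 463 higher. DESeq2's test called 1, where 44 of 7696 rows were lower and 53 higher. Row 25005 fell by 0.78 per day (SE 0.09, edgeR adjusted p = 6.64e-05), from 347 CPM at P4 to 42.9 and 214 CPM at P8 and 0 at P12 and P17. The other falls were those of rows 27841, 948, 21777, 23575 and 5338, with slopes between -0.65 and -0.34 per day. Without P8b, 1 of 17 rows tested was called, row 25005, where 64 of all 7273 rows tested fell and 71 rose. Row 948 did not pass without P12b, nor row 21777 without P8a or P12b.

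The late-stage neurogenic and primary RPCs of these 5 libraries were set against each other in a fit with a term for each library. Of 51 rows tested, 29 were lower in Late_NG and 0 higher, where 8.87% and 7.61% of 7712 rows tested were (edgeR). DESeq2's test called 8, where 329 of 11258 rows were lower and 338 higher. In edgeR 39 were below an unadjusted p of 0.05, where 1140 of all 7712 rows were lower and 949 higher. Without P8b, 23 of 41 rows tested were lower and 0 higher, where 764 of all 8129 rows were lower and 630 higher. Without P4, 7 rows were lower, where 422 of all 5787 rows were lower and 399 higher. A row could pass the filter on low counts through its level in Late_RPC alone. In pooled counts row 32693 was 29.1 CPM in Late_RPC and 2.22 CPM in Late_NG. The score had also required a higher level in Early_RPC than in Early_NG. These counts are therefore not read as a property of the rows. The 29 rows included 11 of the 12 that rose in Early_RPC, 6 of the 14 tested that fell and 12 of the 25 tested that did not pass. Row 27841 was 672 CPM in Late_RPC and 162 CPM in Late_NG at P4, and 1156 against 202 CPM in P8b, a difference of -2.23 ± 0.19 (log2, edgeR adjusted p = 7.69e-08). Row 32716 was 103 against 15.9 CPM at P4 and 332 against 35.6 CPM in P8b (-2.90 ± 0.34, edgeR adjusted p = 2.44e-06). Row 5338 was 161 against 57.1 CPM at P4, 282 against 81.7 CPM in P8a and 113 against 12.1 CPM in P12b (-2.04 ± 0.26, edgeR adjusted p = 6.12e-06). The largest differences were those of row 32693 (-3.70 ± 0.72), row 9426 (-3.01 ± 0.42), row 32716, row 2430 (-2.44 ± 0.44) and row 23166 (-2.42 ± 0.46). In P8a and P12b rows 32693, 9426, 2430 and 23166 were at or below 2.90 CPM in both types, so their differences rest on P4 and P8b and, for row 9426, on P12a, where it was 20.2 against 3.32 CPM.

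Müller glia were present at P8 (94 cells, P8a only), P12, P17 and P21. The 60 rows summed there to 1258 ± 349 CPM (SD, n = 5), with 825 CPM at P21 the lowest. The median row stood at 3.82% to 7.35% of its mean Early_RPC level at E26. The rows that fell before birth had a median of 29.4% to 52.8% of that level in Müller glia, and those that rose 0 to 1.44%. The level at E26 is low for rows that fell and high for rows that rose, so the grouping sets part of this contrast. In summed level the 22 rows that fell gave 594 to 1198 CPM and the 12 that rose 32.2 to 56.2 CPM. The median of the 22 rows was 14.9 to 19.0 CPM and that of the 12 was 0 to 3.51 CPM. Among the 22, rows 29312 and 5338 stood at 378 and 161 CPM in pooled Müller glia and made up a large part of the sum.

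In each Müller glia library 10 to 13 of the 60 rows stood at 50% or more of their mean Early_RPC level at E26, and 9 to 11 of these were among the 22 that fell. The low E26 level of those 22 makes 50% easier for them to reach. The level of row 29312 was 453 CPM in P8a, 268 and 677 CPM at P12, 208 CPM at P17 and 82.0 CPM at P21. It was at 168 to 780.0 CPM in cones of the same libraries and is not particular to glia. Row 5338 was 369 CPM in P8a, 198 and 165 CPM at P12, 135 CPM at P17 and 17.3 CPM at P21. A UMI of row 5338 was found in 51.1% of Müller glia of P8a, 30.9% and 40.1% at P12, 27.4% at P17 and 1.55% at P21, against 1.62% of amacrine cells at P21 and 4.13% in P8a. At P21 its share in Müller glia was thus no higher than in amacrine cells. The other way went row 30976, with 31.6 CPM in P8a, 56.8 and 21.5 CPM at P12, 42.7 CPM at P17 and 94.99 CPM at P21, where 18.0% of Müller glia and 0 of 1600 amacrine cells had a UMI of it. Row 26378 was 14.1 CPM in P8a, 20.2 and 25.9 CPM at P12, 38.5 CPM at P17 and 45.3 CPM at P21. These changes within Müller glia were not tested.

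Müller glia and Late_RPC could be compared in P8a, P12a and P12b only. Of 24 rows tested, 1 was lower in Müller glia and 1 higher, where 2.51% and 2.22% of 7716 rows tested were, 4.73% in either direction (edgeR). Row 25005 was lower (-4.27 ± 0.55, edgeR adjusted p = 2.57e-11), with 17.6, 0 and 1.26 CPM in Müller glia against 33.9, 162 and 0 CPM in Late_RPC, and did not pass without P12a, where its Late_RPC level came from 3 cells. The row that was higher was row 7009 (1.66 ± 0.53, edgeR adjusted p = 0.0392), with 14.1, 27.9 and 29.7 CPM against 7.65, 5.06 and 5.80 CPM, the latter from 7, 1 and 2 UMIs. Its Müller glia values all lay above its Late_RPC values. Without P12b, 1 row passed, where 22 of all 6865 rows tested were lower and 34 higher. DESeq2 and the sums thinned to equal depth tested 4 rows each and called 0, with 0 and 1 below an unadjusted p of 0.05.

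**Figure D4:**
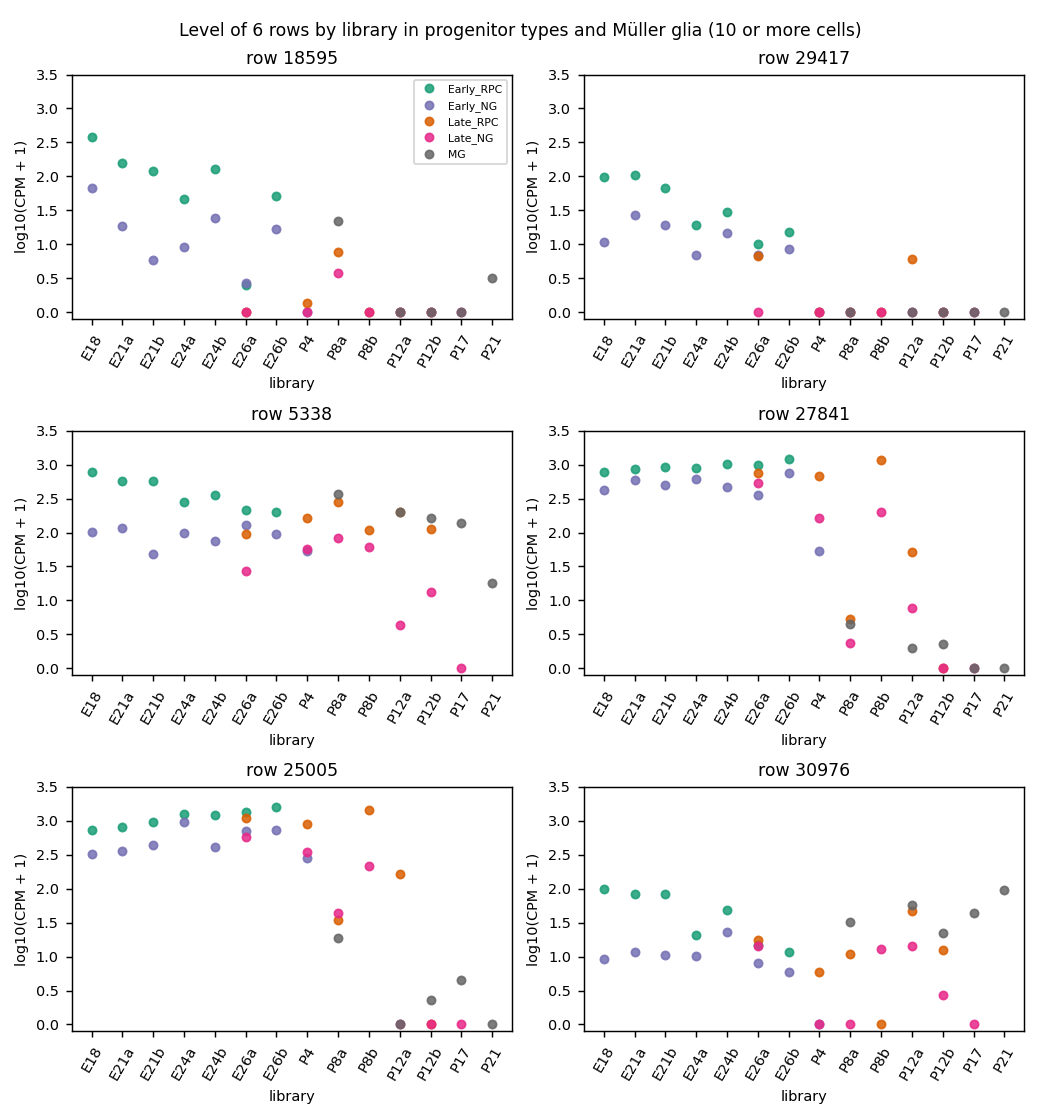
Level of 6 rows as log10(CPM + 1) (vertical axes) in each library (horizontal axes, in order of age), coloured by cell type, for types with 10 or more cells in the library. Rows 18595 and 29417 lie at or near 0 after birth in the types drawn except for row 18595 in P8a, and single points of 1 UMI appear for row 18595 in Müller glia at P21 and row 29417 in Late_RPC of P12a, rows 27841 and 25005 stay high up to P4 and P8b, row 5338 in Müller glia is lowest at P21, and row 30976 is highest in Müller glia at P21 among the postnatal points.

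Row 18595 varied by library beyond its fall with age. In E26a it was 1.48 CPM in Early_RPC, 1.72 CPM in Early_NG, 0.946 CPM in horizontal cells and 0.353 CPM in RGCs, against 50.8 CPM in Early_RPC, 15.7 CPM in Early_NG and 3.78 CPM in RGCs of E26b. It was found in 8 of 1018 Early_RPC cells of E26a (0.786%) and in 15.04% of those of E26b. After birth it was 57.0 CPM in amacrine cells, 59.3 CPM in cones and 21.1 CPM in Müller glia of P8a. In the other postnatal libraries it was highest in amacrine cells at P21 (5.91 CPM) among types with 10 or more cells. In P8a it came from 43 of 1430 amacrine cells (3.01%) and 2 of 82 cones. Without E26a the slope of row 18595 in Early_RPC was -0.33 per day against -0.43 per day with it.

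Per cell, the rows were compared after every cell had been thinned to 1000 UMIs, since depth differed between stages and shallower cells were left out. The median Early_RPC cell then had a UMI of 4 to 6 of the 60 rows in each embryonic library, the median Early_NG cell of 2 to 4 and the median embryonic RGC of 1. At P4 the median Late_RPC cell had 3, in P8b 5, and in P8a and both P12 libraries 1. The median Müller glia cell had 1 in each library. Before thinning, row 5338 was found in 91.6% of Early_RPC cells at E18 (median 8019.5 UMIs) and in 44.5% of RGCs of that library (median 7573 UMIs). After thinning it was found in 49.9% and 8.50%. At E26 the thinned share of row 5338 in Early_RPC was 19.9% and 18.2%, and that of row 25005 was 42.0% and 47.8%, from 30.7% at E18. The shares of cells with row 5338 and with row 25005 thus changed in the same direction as their sums. The rows were not compared within the same cell.

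**Figure D5:**
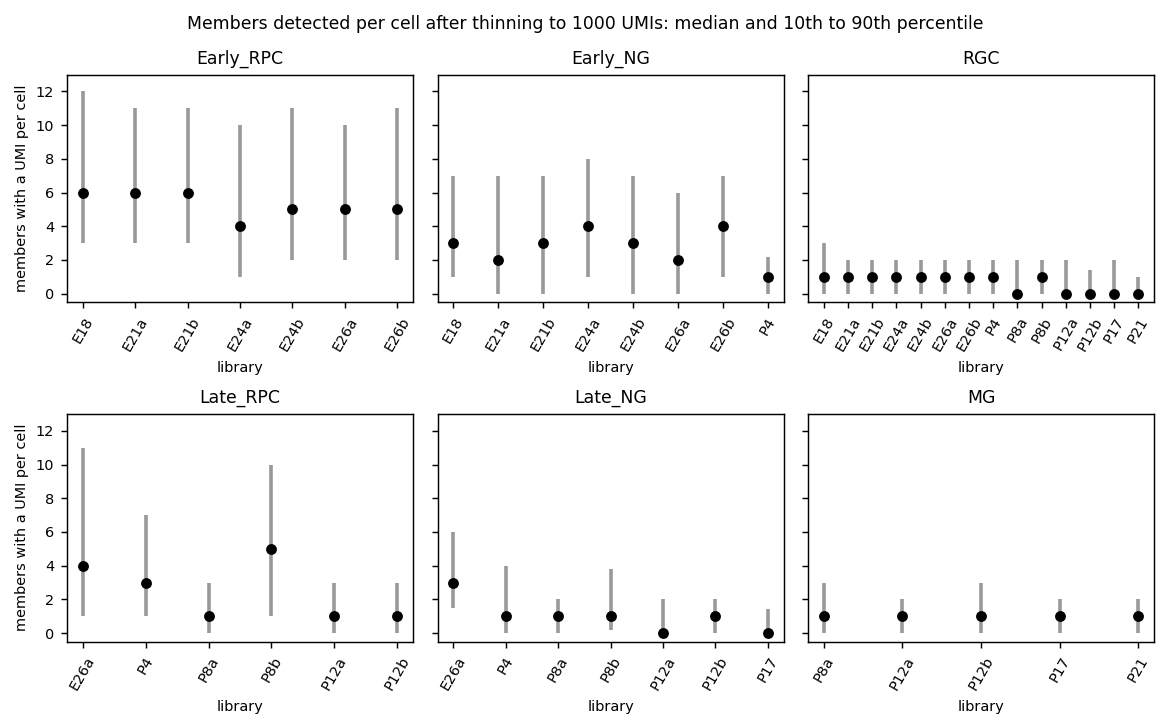
Number of the 60 rows with at least 1 UMI per cell (vertical axes) after thinning each cell to 1000 UMIs, by library (horizontal axes), with 1 panel per cell type. Points are medians and bars run from the 10th to the 90th percentile of cells, and the Late_RPC median in P8b (5) lies within the range of Early_RPC (4 to 6), that at P4 (3) below it, and those of P8a and both P12 libraries at 1.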

How the data were processed

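Whole 13LGS retinas were profiled with 10x Chromium 3′ v3.1 libraries. The authors made UMI counts with CellRanger 3.1.0 on the HiC_Itri_2 assembly and analysed the cells in Seurat 4.0.4, versions that the submitters' processing notes also list. They deposited 1 matrix of whole-number counts, not normalized, and a table of the time point and cell type of each cell. For cell filters, doublet removal and depth equalising the settings were not given in the sources used here. No doublet caller was run. The list of 30265 names is not paired with the 34181 matrix rows and was not used. P1 had 2 library suffixes for 1 sample, so its 6920 cells (13.0%) are not analysed here.

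Cells are not replicates, so counts were summed per library and type (10 or more cells) and fitted in edgeR 4.0.16 (R 4.3.3: filterByExpr, TMM, glmQLFit, glmQLFTest) over all rows, with embryonic or postnatal day as a covariate, or with the library as a block for differences between types. Calls were made where the adjusted p (Benjamini-Hochberg) was below 0.05. SE is the size of the estimate divided by the square root of F. Changes from E18 to E26 are the slope times 8 days. Levels are plain CPM of the sums, and limits from a count of 0 cover counting error only. The fits were also run on simulated counts with the same spread for all rows, no library effects and changes in well-covered rows only. That setting is simpler than the sparse late-stage sums, so the check does not speak for them. Alternatives were DESeq2 1.42.0, its size factors, no filter, thinned sums, 2 age groups, no cells above 2 times the median UMI count and each library left out. Rows named are the 10 highest scores, the 3 on either side of the limit and, per test, the 5 largest called changes each way, and rows printed beside these were chosen after their values were seen. The members and the tests were chosen with earlier results of these data known.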

Additional observations from a re-analysis of the deposited data

Results flagged for a closer look

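The effect of embryonic age differed between cell types of the same libraries for the rows that follow, by a test of the difference itself (edgeR, library as a block). Values are differences in slope, log2 per day. The rows were chosen by their pooled level in Early_RPC against the other types, so their choice is not independent of these tests. Between Early_NG and Early_RPC, 14 members differed: among the named rows, 26378 (0.49), 30976 (0.39), 29417 (0.31), 5338 (0.29) and 13197 (0.27) had the higher slope in Early_NG and 8492 (-0.10) the lower. Between RGCs and Early_RPC, 37 members differed: rows 32693 (-0.32), 29325 (-0.28), 32716 (-0.26), 409 (-0.25) and 21777 (-0.22) had the lower slope in RGCs, and rows 27840 (0.25), 26340 (0.20), 18210 (0.20), 30976 (0.18) and 2217 (0.15) the higher. The share of Early_RPC among a library's cells fell over the same ages, from 70.5% at E18 to 26.1% and 31.0% at E26, and its part in these differences was not tested.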

How the results depend on the processing

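A floor of 20 CPM in place of 50 CPM kept 36 of the 60 rows, and leaving out 1 library kept 45 (without E18) to 58. With 2 age groups 21 rows changed in Early_RPC (15 lower, 6 higher). The Early_NG and Early_RPC difference passed for 7 rows without cells of high UMI count. Age in Late_RPC gave 2 rows with DESeq2's size factors, 2 with its test and 31 with no filter. With no filter 340 of all 20240 rows fell and 154 rose. Age in Late_NG gave 13 rows with no filter, 1 with DESeq2 and 1 with thinned sums. With no filter 196 of all 19290 rows fell and 117 rose. Late_NG against Late_RPC gave 8 with DESeq2 and 4 with thinned sums. Müller glia against Late_RPC gave 1 with no filter, 0 with DESeq2, 0 with thinned sums and 1 without cells of high UMI count. Leaving out 1 library gave 17 to 34 rows for age in Early_RPC, 4 to 10 in Early_NG and 10 to 29 in RGCs, 10 to 12 and 19 to 42 for the differences of Early_NG and RGCs from Early_RPC, 0 to 7 for Late_RPC, 1 to 5 for Late_NG, 7 to 33 for Late_NG against Late_RPC and 0 to 2 for Müller glia. Row 32693, RGCs against Early_RPC, ranged from -0.40 to 0.040 per day with 1 library left out, and reversed without E18 (0.040). The cause was not tested. The number of rows tested changed in both directions: for age in Late_RPC it was 5350 with all libraries, 4074 without P4 and 7146 without P12a. Of 677 alternatives for named rows, 606 kept their direction and their call or lack of one, 68 kept direction only and 2 gained a call. Alternatives in which a row could not be tested are not among the 677. For the counts of rows themselves, 86 alternatives stayed within a fixed fold limit of the main count and 30 did not. Postnatal depth and cell numbers limit the late types. No paired analysis was possible because the cell names do not carry the replicate numbers of the labels that could pair libraries of different ages. Cell types of 1 library were paired in the comparisons between types.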
